A study of Mus musculus with 21 samples.

Results

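*Asns* and 9 genes that surround the Atf4 amino acid response (*Atf4*, *Atf5*, *Ddit3*, *Trib3*, *Chac1*, *Psat1*, *Phgdh*, *Shmt2* and *Mthfd2*) were followed across every condition of the series. They were taken by symbol from a table of 55421 genes, and 10 of 10 were found. *Ddit3* has a further line in the table for a short overlapping gene that is listed at 0 in each library and was not used. Peaks whose nearest listed gene is one of the 10 were added from both ChIP-seq lists.

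The cells were an *Ebf1*-deficient lymphoid progenitor (LP) line from C57BL6/J mice, a single line kept on OP9 stromal cells with SCF, IL-7 and Flt3 ligand and without Notch stimulation. Each culture carried Cas9-GFP and a pool of 2 sgRNAs with a human NGFR marker. The sgRNAs were directed against luciferase (sgControl), *Lmo2* (sgLmo2), *Zbtb1* (sgZbtb1), *Cbfa2t2* (sgCbfa2t2) or *Cbfa2t3* (sgCbfa2t3). GFP+ hNGFR+ cells were sorted 5 days after the sgRNAs were introduced. QuantSeq, which reads the 3′ ends of polyadenylated RNA, was made from 3 biologically independent samples per condition (15 libraries), and ChIP-seq for Zbtb1 and Cbfa2t3 from 2 replicates each.

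When amino acids run short, uncharged tRNA activates the kinase Gcn2, eIF2α is phosphorylated, and general translation falls while *Atf4* mRNA is translated more. Atf4 pairs with C/EBP proteins on a composite element (CARE) and raises genes for amino acid synthesis, uptake and tRNA charging. Asns makes asparagine from aspartate and glutamine, Phgdh and Psat1 make serine, and Shmt2 and Mthfd2 pass its one-carbon unit through the mitochondrial folate pathway. Atf5 and Ddit3 (CHOP) are transcription factors downstream of Atf4, Trib3 is a pseudokinase that restrains the response, and Chac1 degrades glutathione. *Asns* is of interest here because ZBTB1 is known to support *ASNS* expression in T-cell leukemia. Because much of the control of Atf4 is translational, the level of its mRNA is not a measure of its protein.

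The sequences on which the response is read are shown first, for the members whose promoter or peak holds the CARE letters. *Asns* lies on the minus strand at chr6:7675169-7693254 (GRCm38, also called mm10). Of the 300 bases around the RefSeq start (250 before, 50 after), the stretch from the 5′ end to the last base of the match is given, chr6:7693225-7693459, with the CARE letters TGATGNAA (reverse TTNCATCA) in capitals. The match begins 23 bases before the RefSeq start and falls inside the slightly longer first exon of the GENCODE model, which starts 45 bases further upstream.
Asns promoter: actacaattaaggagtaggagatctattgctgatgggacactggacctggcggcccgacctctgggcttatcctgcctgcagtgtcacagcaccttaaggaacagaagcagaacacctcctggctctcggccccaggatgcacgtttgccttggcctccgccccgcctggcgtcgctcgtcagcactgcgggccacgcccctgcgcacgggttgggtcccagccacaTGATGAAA
Chac1 match, chr2:119351038-119351067, plus strand: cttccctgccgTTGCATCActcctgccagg
Trib3 match, chr2:152344028-152344057, minus strand: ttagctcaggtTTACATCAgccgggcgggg

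The match of *Chac1* begins 193 bases before its start and that of *Trib3* 15 bases after it. All 10 members were found in the RefSeq promoter table of this build, with 12 windows. The letters stood on either strand in 3 of the 12 windows, each of a different member. Of 32851 promoter windows of the same length, 3.97% held them. A match is a description of the letters. Its absence from the windows of the other 7 members says only that these letters are not there.

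*Ddit3* (chr10:127290774-127296288, plus strand) had no match in that window, but the letters stood further upstream, inside a Cbfa2t3 peak. The central 200 bases of that peak, chr10:127290450-127290649 on the plus strand, are shown because they join a peak and the element in 1 member. The match begins 282 bases before the GENCODE start. Among 6070 Cbfa2t3 peaks, 1.93% of the central windows of this length hold the letters.
Ddit3 Cbfa2t3 peak: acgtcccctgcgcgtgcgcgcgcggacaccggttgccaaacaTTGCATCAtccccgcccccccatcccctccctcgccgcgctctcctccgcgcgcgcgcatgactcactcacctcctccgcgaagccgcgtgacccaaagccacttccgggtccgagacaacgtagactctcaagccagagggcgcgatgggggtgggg

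Libraries held 1705416 to 2095447 reads, so that 1 read was worth 0.477 to 0.586 TPM. The deposited values, called TPM, are reads scaled to a common library total (CPM) and are not divided by gene length, and since a 3′ read does not multiply with length, levels can be set side by side between genes. None of the targeted mRNAs was clearly lower in its own libraries, so these levels show no loss of a target. The paper reported by immunoblot that Lmo2, Zbtb1 and Cbfa2t3 protein was lost with the matching sgRNA. *Zbtb1* and *Cbfa2t3* mRNA was instead higher than in sgControl in the matching libraries. The differences in log2(TPM + 1) were 0.77 and 0.88 (adjusted p = 0.00102 and 1.67e-07, limma). For both genes, no other library reached the level of the matching ones. *Zbtb1* was at 55.7 to 66.6 TPM in sgControl and 94.4 to 113.3 TPM in the libraries labelled sgZbtb1, and *Cbfa2t3* at 172.4 to 209.6 TPM in sgControl and 340.5 to 364.5 TPM in those labelled sgCbfa2t3. *Cbfa2t2* was at 11.03 to 12.3 TPM in sgControl and 16.4 to 25.5 TPM in the libraries labelled sgCbfa2t2, and *Lmo2* at 15.8 to 23.2 and 8.48 to 24.4 TPM in sgControl and sgLmo2. *Ebf1* 3′ ends were read at 209.4 to 365.9 TPM in the 15 libraries, and 3′ reads outside a deleted part check nothing. The 12 lymphoid progenitor markers summed to 2335 to 2726 TPM, with 3 of them called in sgZbtb1 against sgControl, as given with the other markers. The 18 OP9 stromal markers summed to 2.95 to 20.0 TPM, with *Col3a1*, *Dcn*, *Lum* and *Postn* at 0 in every library.

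*Asns* was read at low to moderate levels everywhere. In sgControl it stood at 34.8, 22.6 and 28.1 TPM in replicates 1, 2 and 3, and in the libraries labelled sgZbtb1 at 31.8, 23.4 and 34.4 TPM. Both sets of values cover nearly the same range. On log2(TPM + 1), sgZbtb1 minus sgControl was 0.07 with a 95% confidence interval of -0.39 to 0.52 (limma, unadjusted p = 0.766, adjusted p = 0.926), and permuting the labels of the 6 libraries (exact, two-sided) gave p = 0.8, where 3 against 3 can go no lower than 0.1. Without sgControl replicate 2 the difference was -0.08. Each of these 6 libraries held 39 to 70 reads of the gene. Fewer cells of a type and less RNA per cell cannot be told apart in these bulk samples. No lower *Asns* level was detectable in the libraries labelled sgZbtb1 at this depth and spread between libraries. The lower bound of the interval is the largest decrease that it still holds.

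The libraries of the remaining conditions overlapped this range or lay above it. *Asns* was at 26.0, 35.7 and 34.0 TPM in sgLmo2 and at 26.1, 38.7 and 46.4 TPM in sgCbfa2t2. In sgCbfa2t3 it was at 40.7, 43.4 and 68.7 TPM, each above the highest sgControl library. The order of the means was sgCbfa2t3 (50.9 ± 15.4 TPM, SD, n = 3), sgCbfa2t2 (37.0 ± 10.2 TPM), sgLmo2 (31.9 ± 5.16 TPM), sgZbtb1 (29.9 ± 5.73 TPM) and sgControl (28.5 ± 6.14 TPM), and the libraries of each neighbouring pair in this order overlapped.

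sgCbfa2t3 minus sgControl was 0.80 for *Asns* (95% confidence interval 0.34 to 1.25, limma, unadjusted p = 0.00087, adjusted p = 0.098), which did not pass the threshold of 0.05. The fitted p was the 103rd lowest of 11554 genes. edgeR on the recovered reads gave 0.85 with adjusted p = 0.068, and DESeq2 gave no adjusted p for this gene. Without sgControl replicate 2, the lowest of the 15 libraries for *Asns*, the difference was 0.65 (unadjusted p = 0.0126, adjusted p = 0.391). Leaving out 1 library at a time gave 0.57 to 0.95, with unadjusted p up to 0.0283 (limma). The sgCbfa2t3 mean leans on replicate 3, at 68.7 TPM beside 40.7 and 43.4 TPM in replicates 1 and 2. sgZbtb1 minus sgCbfa2t3 was -0.73 (95% confidence interval -1.18 to -0.27, limma, adjusted p = 0.115), with the libraries of the 2 conditions apart, and this comparison shares the sgCbfa2t3 libraries with the preceding one.

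**Figure D1:**
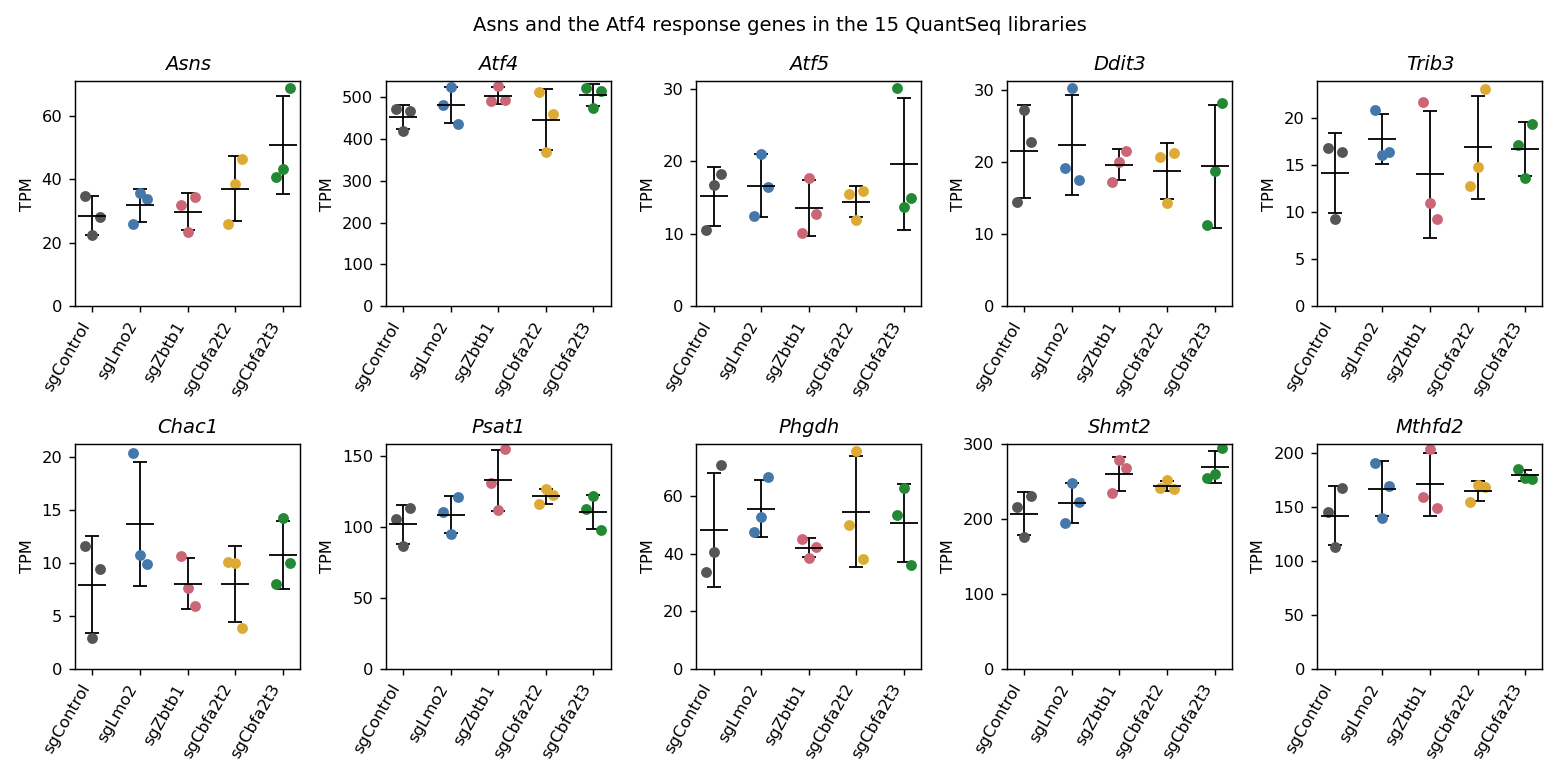
TPM (y axis, from 0, its own scale for each gene) of the 10 genes in the 5 conditions (x axis). Points are the 3 libraries in replicate order from left to right, the bar is the mean and the whiskers are the SD. *Asns* spans 40.7 to 68.7 TPM in sgCbfa2t3 and 22.6 to 34.8 TPM in sgControl, while *Shmt2* spans 234.6 to 278.3 TPM in sgZbtb1 and 176.0 to 230.4 TPM in sgControl.

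*Atf4* itself (chr15:80255184-80257541, plus strand) was the most abundant of the 10, at 471.6, 419.6 and 466.7 TPM in sgControl. It was at 491.1, 525.9 and 491.5 TPM in sgZbtb1 and at 522.2, 473.3 and 514.6 TPM in sgCbfa2t3. These 6 values all lay above the 3 of sgControl. The differences were nevertheless small, 0.15 ± 0.09 (SE) in either comparison, with adjusted p = 0.404 for sgZbtb1 and 0.579 for sgCbfa2t3 (limma). Without sgControl replicate 2 each was 0.10. In sgLmo2 *Atf4* was at 481.7, 523.6 and 436.1 TPM and in sgCbfa2t2 at 510.9, 367.5 and 458.4 TPM, which overlap sgControl.

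*Atf5* (chr7:44812256-44816658, minus strand) was read at 10.5, 16.8 and 18.2 TPM in sgControl. It was at 10.1, 17.7 and 12.8 TPM in sgZbtb1 and at 30.0, 13.7 and 14.96 TPM in sgCbfa2t3, where the sgCbfa2t3 mean is carried by replicate 1. With 18 to 56 reads per library the intervals for *Atf5* were broad (-0.80 to 0.49 for sgZbtb1 and -0.34 to 0.94 for sgCbfa2t3). The libraries of sgLmo2 (12.4 to 21.0 TPM) and sgCbfa2t2 (11.9 to 15.9 TPM) lay in the same range.

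The genes of the CHOP branch were low and variable. *Ddit3* was at 14.5, 27.2 and 22.9 TPM in sgControl, 17.3, 20.1 and 21.6 TPM in sgZbtb1 and 11.3, 18.8 and 28.3 TPM in sgCbfa2t3. *Trib3* (chr2:152337422-152344032, minus strand) was at 16.8, 9.26 and 16.4 TPM in sgControl, 21.8, 10.996 and 9.33 TPM in sgZbtb1 and 17.2, 13.7 and 19.4 TPM in sgCbfa2t3. *Chac1* (chr2:119351229-119354381, plus strand) was at 11.6, 2.89 and 9.38 TPM in sgControl, 10.6, 7.65 and 5.89 TPM in sgZbtb1 and 8.04, 14.3 and 9.97 TPM in sgCbfa2t3. The conditions overlapped for each of the 3 genes.

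The summed level of these 3 genes was 39.4 to 48.7 TPM in sgControl, 36.8 to 49.7 TPM in sgZbtb1, 36.5 to 57.6 TPM in sgCbfa2t3, 39.1 to 48.3 TPM in sgCbfa2t2 and 43.8 to 60.5 TPM in sgLmo2. The largest fitted difference among them was *Chac1* in sgLmo2 at 0.81 ± 0.41 (SE), with a 95% confidence interval of -0.02 to 1.63 and adjusted p = 0.880 (limma). It rested on 5 reads in sgControl replicate 2 and 36 reads in sgLmo2 replicate 1, and was 0.29 without the former and 0.50 without the latter library.

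Among the serine and one-carbon genes, *Shmt2* and *Mthfd2* had their highest mean in sgCbfa2t3, followed by sgZbtb1, and *Psat1* had its highest mean in sgZbtb1. *Shmt2* (chr10:127517123-127522444, minus strand) was at 216.0, 176.0 and 230.4 TPM in sgControl. It was at 234.6, 278.3 and 268.6 TPM in sgZbtb1 and at 255.2, 259.8 and 294.7 TPM in sgCbfa2t3, with no overlap with sgControl in either. In sgCbfa2t2 it was at 241.1, 252.0 and 239.6 TPM, again above sgControl, and in sgLmo2 at 194.5, 248.4 and 222.4 TPM, within reach of it.

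sgZbtb1 minus sgControl was 0.33 ± 0.11 (SE) for *Shmt2*, with adjusted p = 0.0508 (limma), just outside the threshold. edgeR (adjusted p = 0.0366) and DESeq2 (adjusted p = 0.0451) put it inside. sgCbfa2t3 minus sgControl was 0.38 ± 0.11 (SE), with adjusted p = 0.0761 by limma, 0.0682 by edgeR and 0.0471 by DESeq2. Without sgControl replicate 2 the differences of *Shmt2* were 0.22 (adjusted p = 0.351) and 0.27 (adjusted p = 0.453).

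*Psat1* (chr19:15904678-15947337, minus strand) was at 105.7, 86.8 and 113.2 TPM in sgControl and 131.3, 111.9 and 155.2 TPM in sgZbtb1, where replicate 2 reached into the sgControl range. The difference was 0.37 ± 0.13 (SE, unadjusted p = 0.00637, adjusted p = 0.0853, limma), and without sgControl replicate 2 it was 0.26 (unadjusted p = 0.0751). In sgCbfa2t3 *Psat1* was at 112.6, 121.6 and 98.0 TPM, 0.12 ± 0.13 (SE) from sgControl, and 0.01 without sgControl replicate 2. sgZbtb1 minus sgCbfa2t3 was 0.25 with a 95% confidence interval of -0.01 to 0.52. In sgCbfa2t2 the 3 libraries (116.0 to 126.5 TPM) lay above sgControl, and in sgLmo2 (94.8 to 121.1 TPM) they did not.

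*Mthfd2* (chr6:83305691-83325908, minus strand) was at 145.2, 113.4 and 167.7 TPM in sgControl, 159.8, 204.2 and 149.3 TPM in sgZbtb1 and 185.5, 177.0 and 176.2 TPM in sgCbfa2t3. The sgCbfa2t3 libraries were separate from sgControl and the sgZbtb1 libraries were not. The differences were 0.27 ± 0.12 (SE, adjusted p = 0.226) and 0.35 ± 0.12 (SE, adjusted p = 0.239, both limma). Without sgControl replicate 2 they were 0.12 and 0.20, with unadjusted p = 0.376 and 0.136 in the limma fit across genes.

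*Phgdh* (chr3:98313170-98339990, minus strand), the entry enzyme of serine synthesis, was at 33.7, 40.5 and 71.0 TPM in sgControl, 45.3, 38.7 and 42.2 TPM in sgZbtb1 and 53.6, 62.8 and 36.0 TPM in sgCbfa2t3, and sgControl alone covered nearly this whole span. sgZbtb1 minus sgControl was -0.13 with a 95% confidence interval of -0.55 to 0.30, and 0.18 without sgControl replicate 3, the highest of the 3. sgCbfa2t3 minus sgControl was 0.11, and -0.11 without sgControl replicate 1. Summed over *Psat1*, *Phgdh*, *Shmt2* and *Mthfd2*, the level was 416.7 to 582.3 TPM in sgControl, 570.9 to 633.0 TPM in sgZbtb1, 604.9 to 621.2 TPM in sgCbfa2t3, 561.5 to 625.2 TPM in sgCbfa2t2 and 536.3 to 579.6 TPM in sgLmo2.

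**Figure D2:**
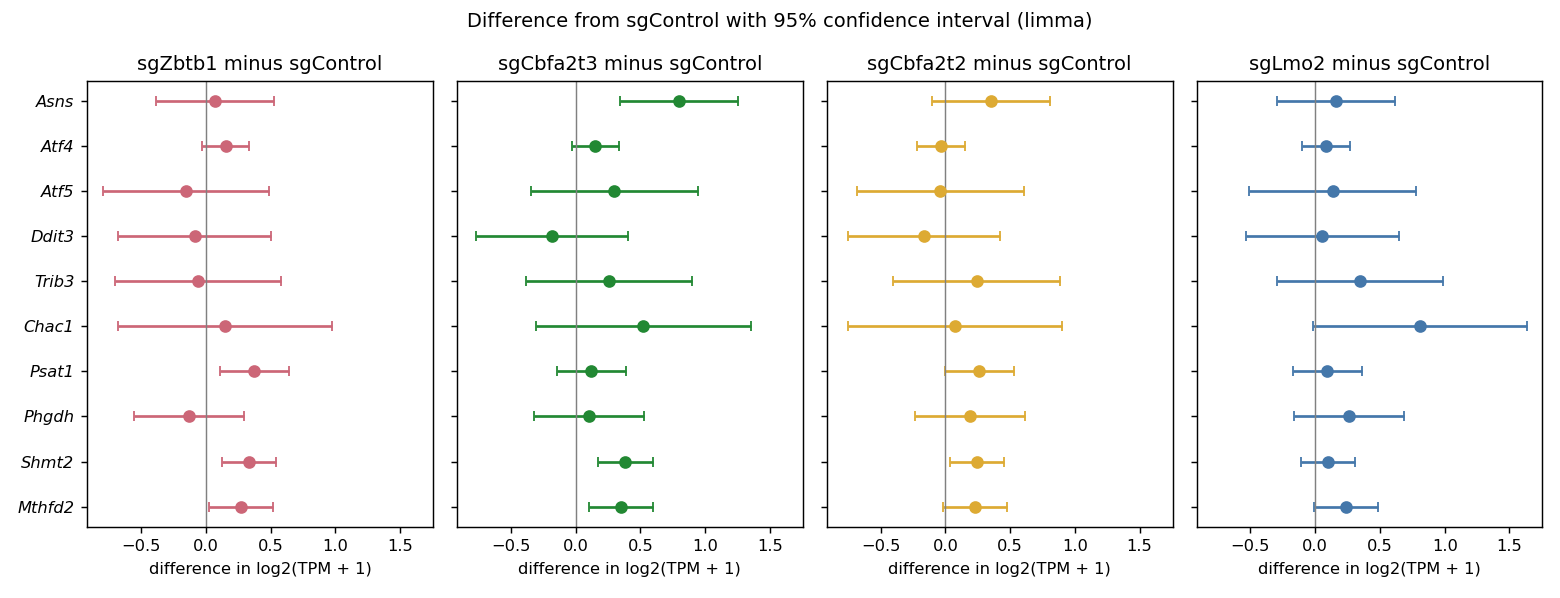
Difference from sgControl in log2(TPM + 1) (x axis) of each gene (y axis), 1 panel per sgRNA. Points are the limma estimates and whiskers are 95% confidence intervals. *Asns* lies at 0.07 in sgZbtb1 and 0.80 in sgCbfa2t3, and *Shmt2* at 0.33 and 0.38.

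Over the 10 members, sgZbtb1 against sgControl gave 0 with an adjusted p under 0.05 in limma, where 4.79% of 11554 genes passed. edgeR and DESeq2 each called 1, *Shmt2*. An unadjusted p under 0.05 was found for 3 members (*Psat1*, *Shmt2* and *Mthfd2*), all higher in sgZbtb1, beside 17.6% of all genes in either direction and 7.37% in the higher direction. The libraries were apart for 2 members (*Atf4* and *Shmt2*), beside 22.9% of all genes. The median difference of the members was 0.11, and that of all genes was -0.03.

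sgCbfa2t3 against sgControl likewise gave 0 members with limma, where 0.537% of genes passed, 0 with edgeR and 1 with DESeq2 (*Shmt2*). An unadjusted p under 0.05 was found for 3 members (*Asns*, *Shmt2* and *Mthfd2*), all higher in sgCbfa2t3, beside 10.6% of genes in either direction and 4.32% in the higher direction. The libraries were apart for 4 members (*Asns*, *Atf4*, *Shmt2* and *Mthfd2*), beside 15.8% of genes. The median difference was 0.28 for the members and -0.01 for all genes, with 9 of 10 members above 0 (48.6% of all genes), and 8 of 10 when sgControl replicate 1 or sgControl replicate 2 was left out. Both comparisons share the sgControl libraries, so the members they have in common do not count as separate observations.

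For sgCbfa2t2, 0 members were called by limma, edgeR or DESeq2 (0.147% of genes by limma), 1 member (*Shmt2*) had an unadjusted p under 0.05 (9.56% of genes), and the libraries were apart for 2, *Psat1* and *Shmt2* (13.7%). For sgLmo2, the 3 tools called 0 members (0.0173% of genes by limma), 0 had an unadjusted p under 0.05 (5.65%), and the libraries were apart for 0 (10.6%), although 10 of 10 fitted differences were above 0, at 0.06 to 0.81, beside 52.3% of all genes, and 8 of 10 stood above 0 when sgControl replicate 1 or sgControl replicate 2 was left out. For sgZbtb1 against sgCbfa2t3, 0 members were called by the 3 tools (1.13% of genes by limma), and *Asns* was the 1 member with an unadjusted p under 0.05 in limma (10.0%) and with libraries apart (14.6%).

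sgControl replicate 2 was the lowest of the 15 libraries for 6 of 10 members, *Asns*, *Trib3*, *Chac1*, *Psat1*, *Shmt2* and *Mthfd2*. Among 8157 genes with a mean above 10 TPM, it was the lowest library for 6.71%. It was the rank 2 library from the bottom for *Atf4* and the rank 13 library for *Ddit3*. It held 1727730 reads, close to the 1721953 and 1705416 reads of the other sgControl libraries, and its stromal marker sum was 10.996 TPM beside 17.4 and 16.4 TPM. Without it, the number of members with an unadjusted p under 0.05 went from 3 to 0 in sgZbtb1, from 3 to 2 in sgCbfa2t3 and from 1 to 0 in sgCbfa2t2 and stayed at 0 in sgLmo2, and the median member difference went from 0.11 to 0.02, from 0.28 to 0.06, from 0.21 to 0.06 and from 0.15 to 0.09. The other sgControl libraries also moved these counts. Without sgControl replicate 3 the number stayed at 3 in sgZbtb1 and in sgCbfa2t3, went from 1 to 4 in sgCbfa2t2 and from 0 to 3 in sgLmo2, and the medians were 0.18, 0.43, 0.33 and 0.23. Without sgControl replicate 1 the numbers were 3, 3, 1 and 1, and the medians 0.20, 0.28, 0.26 and 0.13.

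**Figure D3:**
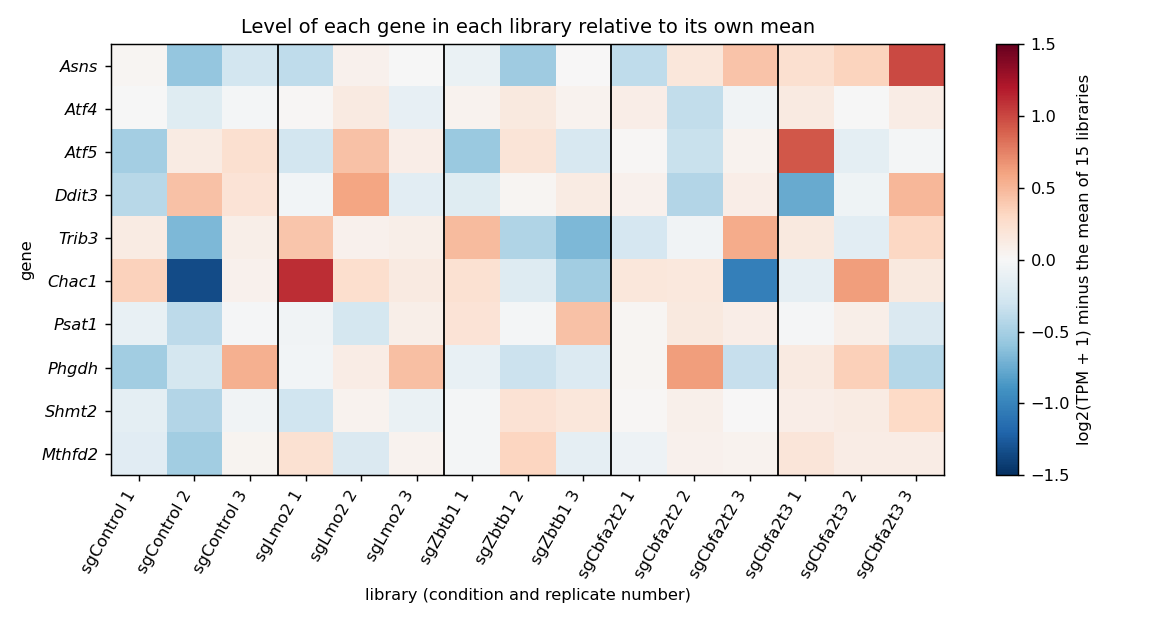
Each gene (rows) in each library (columns, 3 per condition, lines between conditions), coloured by log2(TPM + 1) minus the mean of that gene over the 15 libraries. sgControl replicate 2 is the lowest library in 6 of the 10 rows, down to -1.35 for *Chac1*, and sgCbfa2t3 replicate 3 reaches 0.98 for *Asns*.

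The likeness of the other members to *Asns* over the 15 libraries differed from gene to gene. On log2(TPM + 1), Pearson's r with *Asns* was 0.58 for *Shmt2*, 0.46 for *Trib3*, 0.23 for *Mthfd2*, 0.09 for *Psat1*, 0.06 for *Atf4*, 0.02 for *Atf5*, -0.02 for *Ddit3* and -0.06 for *Phgdh*, and *Chac1* was below the level required. Of 8156 genes with a mean above 10 TPM, those most like *Asns* were *Nelfa* (r = 0.86), *H2afz* (0.78), *Mpc1* (0.75), *Ncapd2* (0.75) and *Fbxo9* (0.75). *Shmt2* was at rank 75 of the same ordering. These values describe 15 libraries in 5 conditions that share a cell line and carry the condition differences within them.

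Across 15 libraries *Chac1* had the largest coefficient of variation, 43.0%, where counting alone would give 23.6% at its mean, and *Atf4* the smallest, 9.22% beside 3.34%. *Asns* varied by 32.5% beside 12.2%, and *Shmt2* by 12.8% beside 4.69%. The highest over the lowest library was 3.04-fold for *Asns* and 1.67-fold for *Shmt2*.

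The wider pathway was taken in 8 lists without the 10 members. In sgZbtb1 against sgControl, 7 of their 133 tested genes (5.26%) had an adjusted p under 0.05 (limma), 5 higher and 2 lower, beside 4.79% of all genes. The 2 that fell were in the list of other Atf4 and CHOP target genes, 2 of 20 tested, with a median of 0.11. *Klhl24*, a ubiquitin ligase adaptor, fell from 89.5 ± 10.4 to 51.8 ± 9.15 TPM (SD, n = 3; adjusted p = 0.00074 in limma). *Herpud1*, which acts in endoplasmic reticulum-associated degradation, fell from 130.6 ± 19.5 to 88.7 ± 4.78 TPM (adjusted p = 0.00593 in limma). *Sqstm1*, the autophagy receptor and the most abundant of this list, was at 144.5 ± 10.2 TPM in sgControl.

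Among 20 cytosolic aminoacyl-tRNA synthetases, 1 was called, and 18 had a difference above 0 (90.0%, median 0.15), beside 46.7% of all genes. *Gars*, which charges glycine tRNA, rose from 180.9 ± 29.04 to 247.0 ± 37.3 TPM (adjusted p = 0.0092 in limma), with sgZbtb1 replicate 2, at 205.6 TPM, just above the highest sgControl library, at 205.2 TPM. An unadjusted p under 0.05 was found for 6 of the 20, all higher, beside 17.6% of all genes in either direction and 7.37% in the higher direction. The most abundant synthetases were *Eprs* (412.4 ± 10.8 TPM in sgControl) and *Farsa* (339.4 ± 7.74 TPM).

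Of 18 eIF2 kinases, Gcn2-arm genes and eIF2 factors, 2 rose in sgZbtb1 and 0 fell in limma, and 7 had an unadjusted p under 0.05, all higher (median 0.14), against the same 17.6% and 7.37% of all genes. *Eif2b5*, the catalytic subunit of the eIF2 exchange factor, rose from 96.0 ± 9.10 to 142.3 ± 24.0 TPM (adjusted p = 0.00569 in limma). *Eif2s2*, the β subunit of eIF2 and the most abundant of the list, rose from 737.3 ± 37.6 to 873.0 ± 25.7 TPM (adjusted p = 0.0457 in limma). *Eif2s1*, the α subunit, was at 144.3 ± 9.75 TPM in sgControl.

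Of 14 other serine and one-carbon enzymes, 1 rose and 0 fell. *Gcsh*, the hydrogen carrier of the glycine cleavage system, went from 41.3 ± 9.02 to 61.7 ± 3.72 TPM (adjusted p = 0.0467 in limma), and the median of the list was 0.08. *Mat2a* (596.0 ± 16.4 TPM in sgControl), which makes S-adenosylmethionine, and *Sfxn1* (419.5 ± 28.3 TPM), the mitochondrial serine carrier, were its most abundant members. Of 14 asparagine, aspartate and glutamine enzymes, 1 rose and 0 fell. *Cad*, which starts pyrimidine synthesis from glutamine and aspartate, went from 100.9 ± 5.39 to 137.8 ± 11.04 TPM (adjusted p = 0.0443 in limma). *Got2*, the mitochondrial aspartate aminotransferase, was the most abundant, at 218.3 ± 7.22 TPM in sgControl.

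In the other 3 lists, limma called 0 genes in sgZbtb1, where 4.79% of all genes passed. An unadjusted p under 0.05 was found for 17.6% of all genes, with 1179 of 11554 lower. Of 10 amino acid transporters, 2 had an unadjusted p under 0.05, both lower, and the most abundant were *Slc38a2* and *Slc38a1* (346.1 ± 3.59 and 338.5 ± 11.53 TPM in sgControl). Of 20 genes of the Atf6 and Xbp1 arms of the unfolded protein response, 1 was higher and 3 lower at that level, with *Hspa5* (1159 ± 127 TPM) and *Hsp90b1* (761.8 ± 53.2 TPM) leading in abundance. Of 17 Atf4 partners and bZIP relatives, 0 had an unadjusted p under 0.05, and *Jund* (413.6 ± 69.9 TPM) and *Creb1* (149.3 ± 15.9 TPM) were the most abundant.

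Over the 8 lists, 29 of 133 genes (21.8%) had an unadjusted p under 0.05 in sgZbtb1, beside 17.6% of all genes, and edgeR called 10 genes and DESeq2 7. In sgCbfa2t3, sgCbfa2t2 and sgLmo2 against sgControl, limma, edgeR and DESeq2 each called 0 genes of the 8 lists, while 16, 5 and 13 of the 133 (12.03%, 3.76% and 9.77%) had an unadjusted p under 0.05 in limma, beside 10.6%, 9.56% and 5.65% of all genes. In sgLmo2, 20 of 20 genes of the Atf6 and Xbp1 arms had a difference above 0 (median 0.12), beside 52.3% of all genes. The lists were written with results of these data known, and nothing particular to a list is drawn from the counts.

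The summed T-lineage and stromal markers did not overlap between sgControl and sgZbtb1, and the summed myeloid and B-lineage markers did. The 10 T-lineage markers summed to 421.6 to 451.5 TPM in sgControl and 184.6 to 258.7 TPM in sgZbtb1, with 4 of 6 tested lower at an adjusted p under 0.05 (limma; *Thy1*, *Lck*, *Bcl11b* and *Cd247*) and *Ptcra* and *Cd3e* at 0 in each of these libraries. The 18 stromal markers summed to 10.996 to 17.4 TPM in sgControl and 2.95 to 6.70 TPM in sgZbtb1. That sum is mostly *Pdgfrb* and *Timp3*, with means of 5.64 and 2.64 TPM over the 15 libraries, the only 2 stromal markers tested. Both were lower in sgZbtb1 at an unadjusted p under 0.05, and 0 at an adjusted p under 0.05 (limma). The 12 myeloid markers summed to 275.3 to 305.0 and 276.8 to 292.7 TPM, and the 10 B-lineage markers to 5.79 to 13.5 and 1.12 to 10.3 TPM. *Elane*, *Csf3r*, *S100a8* and *S100a9* (myeloid) and *Cd79a*, *Vpreb3* and *Ms4a1* (B lineage) were at 0 in both conditions. The myeloid sum is mostly *Fcer1g*, at 269.2 ± 17.8 TPM in sgControl and 266.4 ± 3.16 TPM in sgZbtb1 (SD, n = 3), and 4 of 4 tested myeloid markers had a difference below 0 (median -0.16, lowest -0.70), 0 of them with an unadjusted p under 0.05 in limma. Of 3 B-lineage markers tested, 1 was lower in sgZbtb1, *Pax5*, at 6.80 ± 1.51 TPM in sgControl and 0.810 ± 0.747 TPM in sgZbtb1 (SD, n = 3; adjusted p = 0.0042 in limma), on 0 to 3 reads per sgZbtb1 library. Of the 12 lymphoid progenitor markers, *Cd34* was higher in sgZbtb1 (258.3 ± 47.7 to 368.7 ± 8.29 TPM), and *Kit* (22.3 ± 0.727 to 10.2 ± 5.18 TPM) and *Ptprc* (475.9 ± 36.0 to 391.3 ± 25.6 TPM) were lower, each at an adjusted p under 0.05 in limma. The T-lineage sum was also apart from sgControl in the other conditions, lower in sgCbfa2t3 (300.3 to 333.4 TPM, 1 of 6 tested, *Thy1*, lower at an adjusted p under 0.05 in limma) and sgCbfa2t2 (346.8 to 394.3 TPM, 0 of 6) and higher in sgLmo2 (472.7 to 510.6 TPM, 0 of 6). The stromal sum was 7.75 to 12.9 TPM in sgCbfa2t3, 9.18 to 11.7 TPM in sgCbfa2t2 and 12.6 to 20.0 TPM in sgLmo2, each overlapping sgControl. The part of these markers in the member differences was not tested.

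The ChIP-seq lists hold 5898 Zbtb1 and 6077 Cbfa2t3 reproducible peaks, 1 list per factor from 2 replicates, so peaks carry no replicate error. The score is the peak caller's and the lists start at 15. *Asns* is the nearest gene of 0 peaks in either list. The nearest Zbtb1 peak lies 516.1 kb upstream of its start, at *Mios*, and the nearest Cbfa2t3 peak 151.4 kb upstream, at *C1galt1*. A list of peaks above a minimum shows no signal below it.

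Zbtb1 peaks were listed for 2 of 10 members, *Atf4* and *Psat1*, beside 27.3% of the genes in the fit. The *Atf4* peak at chr15:80255544-80255914 (score 40.0) has its centre 545 bases after the start, in intron 1 of the RefSeq model. The *Psat1* peak at chr19:15924712-15925082 (score 19.7) has its centre within 0.162 kb of a RefSeq start, at the promoter. The GENCODE model of *Psat1* starts 22.3 kb further upstream. The longest stretch of this peak outside annotated exons, chr19:15924712-15924863 on the minus strand, is shown because *Psat1* has both a Zbtb1 peak listed for it and an unadjusted p under 0.05 in sgZbtb1. Neither the CARE letters nor the Runx core letters given below for *Atf4* occur in it on either strand.
Psat1 Zbtb1 peak: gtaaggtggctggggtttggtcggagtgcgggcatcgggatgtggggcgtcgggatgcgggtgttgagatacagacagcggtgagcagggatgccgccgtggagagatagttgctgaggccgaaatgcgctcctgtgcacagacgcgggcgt

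Cbfa2t3 peaks were listed for 4 of 10 members, beside 20.9% of genes in the fit. The *Ddit3* peak (chr10:127290360-127290738, score 22.1), whose sequence was given above with the CARE letters, is centred 244 bases before the RefSeq start. The *Atf4* peak (chr15:80255244-80255622, score 26.3) is centred 249 bases after the start, in the 5′ UTR of exon 1. The *Phgdh* peak (chr3:98348163-98348541, score 21.9) lies 8.38 kb upstream in an intergenic MLT1D repeat. The *Psat1* peak (chr19:15815160-15815538, score 37.7) lies 109.3 kb downstream of the RefSeq start in intergenic sequence.

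*Atf4* was the 1 member whose peaks from both lists met. They overlapped by 79 bases, with centres 296 bases apart, and were not shared when centres had to lie within 100 bases. Each holds the Runx core letters TGTGGT (reverse ACCACA), in capitals below, 1 on each strand. Such letters were in the central 200 bases of 41.3% of Zbtb1 peaks and 43.7% of Cbfa2t3 peaks, so their presence in 2 peaks at *Atf4* is common in both lists. The 30 bases around each match are given on the plus strand, at chr15:80255712-80255741 and chr15:80255411-80255440.
Atf4 Zbtb1 peak: cgggggcctcgcTGTGGTtgggtgcggccc
Atf4 Cbfa2t3 peak: taggatcacgtgACCACAgtgggaggatac

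Other peaks stood close to members but were listed for neighbours. A Zbtb1 peak of score 16.3, listed for *Gm14164*, lay 5.82 kb upstream of the start of *Trib3*. A Zbtb1 peak of score 321.8 lay 1.80 kb upstream of *Ddit3*, at the promoter of *Mbd6*. A Zbtb1 peak of score 120.1 at the promoter of *Mob1a* lay 8.49 kb from the RefSeq start of *Mthfd2*, whose GENCODE model reaches 8.30 kb further upstream and so starts 186 bases from the centre of this peak. *Mthfd2* too had an unadjusted p under 0.05 in sgZbtb1. A Cbfa2t3 peak of score 50.4 lay 8.88 kb downstream of the start of *Shmt2*, nearest to *Ndufa4l2*. For *Chac1*, a peak of each factor lay 13.2 and 13.3 kb upstream, near *Gm14207*.

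**Figure D4:**
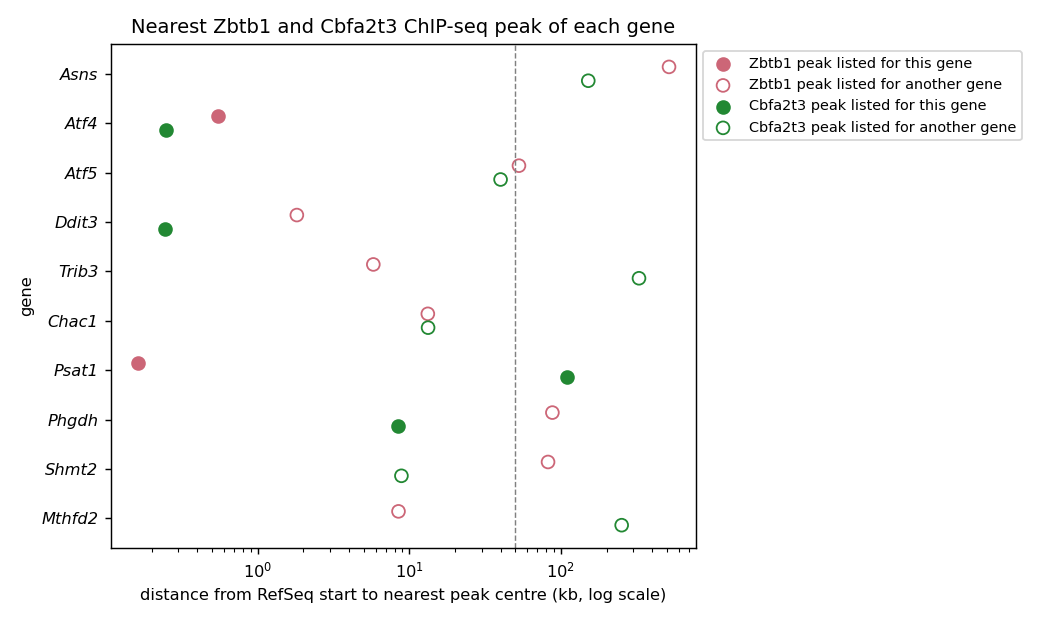
Distance in kb (x axis, log scale) from the RefSeq start of each gene (y axis) to the centre of the nearest Zbtb1 (red) and Cbfa2t3 (green) peak. Filled circles are peaks listed for the gene itself, open circles are peaks listed for another gene, and the dashed line marks 50 kb. *Asns* has its nearest peaks at 516 and 151 kb, while *Atf4* has both within 1 kb.

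Of the members with an unadjusted p under 0.05 in sgZbtb1, *Psat1* has a listed Zbtb1 peak and *Shmt2* and *Mthfd2* have none. *Atf4*, with a peak of each factor, differed by 0.15 in sgZbtb1 and in sgCbfa2t3. In sgCbfa2t3, *Asns*, *Shmt2* and *Mthfd2* had an unadjusted p under 0.05 and no listed Cbfa2t3 peak, and the 4 members with one had differences of 0.15 (*Atf4*), -0.18 (*Ddit3*, 0.14 without sgCbfa2t3 replicate 1), 0.12 (*Psat1*) and 0.11 (*Phgdh*). Of the 7 genes of the 8 lists called in sgZbtb1, *Gars* carries a Zbtb1 peak, *Klhl24* and *Herpud1* carry Cbfa2t3 peaks and no Zbtb1 peak, and *Eif2b5*, *Eif2s2*, *Gcsh* and *Cad* carry neither.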

How the data were processed

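Mouse LP cells were profiled by QuantSeq in 15 libraries and by ChIP-seq for 2 factors. Per the labels and methods, the authors trimmed reads with fastp and aligned them with STAR to mm10. The deposited expression values are called TPM but act as CPM (each library summing to the same total), and the authors did not divide them by length. Among values of up to 100 reads, 100% are whole multiples of 1 read (tolerance 0.1 read), so reads were recovered for count tests. Higher values were rounded to whole reads with the same step and were not checked in this way. ChIP reads were aligned by the authors with Bowtie 1.1.1, and the deposited HOMER peak score and distance were used as given. Files pair 55421 gene identifiers with symbols, and 1 line without an identifier was left out. It holds, in each library, the value of 1 read.

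All 15 libraries entered 1 limma 3.58.1 fit (eBayes with trend, R 4.3.3) on log2(TPM + 1) over 11554 genes with a mean above 1 TPM, two-sided, with Benjamini-Hochberg adjustment over these genes. This scale understates changes of low genes. edgeR 4.0.16 and DESeq2 1.42.0 were run on recovered reads. In data simulated for sgZbtb1 against sgControl over 11554 genes, limma recovered 98% of 100 genes changed by 2 on the log2 scale and 71% of 100 genes changed by 1. Changes of the size seen for the members, 0.81 at most, were not simulated, so recovery at that size is not known. Depth was 1705416 to 2095447 reads per library, and 3 reads, taken as the floor, were 1.43 to 1.76 TPM. Intervals from reads cover counting error only. No pair of replicates agreed within sampling noise (chi-square per degree of freedom 2.25 to 3.75). The members and lists were chosen with earlier results of these data known. Named genes were the members, the targeted genes and *Ebf1*, genes of the 8 pathway lists past the threshold in a comparison with sgControl (up to 5 per list and comparison), the 2 most abundant of each pathway list in sgControl, and the 5 genes most like *Asns*. For 1 gene that this rule names, the result is not reported here. Other genes are named as neighbours of peaks or as cell type markers, the latter chosen after their values were seen. Promoters came from RefSeq and exons from GENCODE, both on GRCm38. Alternatives were another pseudocount, filters, scaling, tools, subsets of libraries, a replicate block and left-out libraries.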

Additional observations from a re-analysis of the deposited data

How the results depend on the processing

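For *Asns*, sgZbtb1 minus sgControl stayed outside the threshold under each alternative. Its sign changed when 9 libraries, those of sgLmo2, sgCbfa2t2 and sgCbfa2t3, took the place of sgControl (-0.37, adjusted p = 0.321), and leaving out 1 library at a time moved it between -0.084 (without sgControl replicate 2) and 0.23 (-0.039 without sgZbtb1 replicate 3). For the members in sgZbtb1 against sgControl, 1 (*Shmt2*) passed with a mean above 10 TPM, median-of-ratios size factors, edgeR, DESeq2, the 6 libraries alone and the replicate block, and 0 to 1 with 1 library left out (*Shmt2* without sgControl replicate 3 or sgZbtb1 replicate 1, *Psat1* without sgZbtb1 replicate 2). In sgCbfa2t3, 1 (*Shmt2*) passed with DESeq2 and with the block. The adjusted p of *Asns* in sgCbfa2t3 ranged from 0.0525 to 0.299 over the alternatives that gave one and from 0.0685 to 0.417 with 1 library left out. In the other comparisons 0 members passed under each alternative run. The 49 other member differences changed sign in 57 of 721 recomputed values, and 30 of the 49 did so under at least 1 setting, never where a fit called the gene, and 11 values moved past the threshold. The cause was not tested.

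In sgZbtb1 the 8 pathway lists gave 3 calls with all genes above 0, 12 with the 6 libraries alone or with the replicate block, and 2 to 7 with 1 library left out (2 without sgZbtb1 replicate 3, 3 without sgControl replicate 3, 4 without sgControl replicate 2 or sgZbtb1 replicate 1). In sgLmo2 they gave 1 with the block and 6 against the 9 other gene-targeting libraries, and in sgZbtb1 against sgCbfa2t3 0 to 2 with 1 library left out (2 without sgCbfa2t3 replicate 2).

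Same-numbered libraries had correlated deviations of -0.01 to 0.07 (30 pairs), and none of the 30 exceeded the 0.1 required, so the libraries were not treated as paired. That 14 of 15 libraries correlated best with their own number is a hint of a shared effect from the data, not from the design. With the block, calls over all genes went from 554 to 709 (sgZbtb1), 62 to 93 (sgCbfa2t3), 17 to 36 (sgCbfa2t2), 2 to 14 (sgLmo2) and 130 to 166 (sgZbtb1 against sgCbfa2t3). With all genes above 0 the calls were 330, 24, 0, 2 and 80. Against the 9 other gene-targeting libraries they numbered 31 (sgCbfa2t3), 9 (sgCbfa2t2) and 201 (sgLmo2). The 6 libraries alone gave 1 in sgLmo2. With 1 library left out they were 306 to 459, 26 to 59, 2 to 26, 1 to 4 and 86 to 107.

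At a score of at least 30, 1 member had a Zbtb1 peak (*Atf4*) and 1 a Cbfa2t3 peak (*Psat1*). The share of all fitted genes at that score was not computed, so these counts have no background beside them. With any peak within 50 kb of the gene start, 6 members had a Zbtb1 peak and 6 a Cbfa2t3 peak, beside 54.3% and 41.8% of 11545 fitted genes with a GENCODE start. The shared peak at *Atf4* fell to 0 with centres within 100 bases or with an overlap of 50% of each peak. The 39 to 124 reads of *Asns* per library and its spread between libraries limit the size of change that could be seen. Over the 15 libraries it varied by 32.5%, where counting alone would give 12.2%.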
